A study of Mus musculus with 6 samples.

Results

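Bone morphogenetic proteins (BMPs) are secreted ligands that bind a complex of type I and type II serine/threonine kinase receptors on the cell surface. The type II receptor phosphorylates the type I receptor, which in turn phosphorylates SMAD proteins that enter the nucleus. Secreted antagonists bind the ligands outside the cell and keep them from the receptors. In mouse embryonic stem cells (ESCs) BMP signaling acts together with leukemia inhibitory factor (LIF) to hold differentiation back, and in the embryo its inhibition permits neural fate. The 10 genes described here encode 3 type I receptors (Bmpr1a, Bmpr1b and Acvr1), the type II receptor Bmpr2, the pseudoreceptor Bambi, which lacks the kinase domain, and 5 secreted proteins (Nog, Chrd, Grem1, Fst and Fstl1). They were taken by exact gene name from the deposited RNA-seq table, where each has 1 of the 23235 rows.

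RNA was sequenced from E14Tg2a, an established line of mouse ESCs, at passages 37 to 40. The control group of 3 samples was pluripotent ESCs kept with LIF. The other 3 samples had received 1 μM retinoic acid (RA) for 48 h in monolayers deprived of LIF, and are called NCs here after the study's term neuronal cells. All 6 samples came from the same line and serum-containing medium. The NC samples differ from the ESC samples by both the removal of LIF and the addition of RA, which cannot be told apart. Levels are FPKM, which corrects fragment counts for transcript length and for the number of mapped fragments. The table gives 1 FPKM per gene and condition. It carries no replicate values, so no value below has an SD or a test, and no difference is set against the spread between replicates here. In these bulk samples, fewer cells of a type and less RNA per cell cannot be told apart.

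A gene was called higher or lower in NCs when its FPKM differed at least 2-fold and reached 1 FPKM in at least 1 condition. Of 22969 distinct gene names, 13290 reached that level. By this rule 12.5% of them were higher in NCs and 10.6% lower. The sum of all FPKM was 770592 in ESCs and 628679 in NCs. Scaling both columns to the same sum (TPM) therefore raises every log2 ratio by 0.29, and moves the share of higher genes among all calls from 54.0% to 70.6%. Among marker genes, all 6 of pluripotent cells were lower and all 5 of the RA response were higher in NCs. Of the latter, Cyp26a1 (0.874 FPKM), Rarb (0.128) and Hoxb1 (0.126) were under 1 FPKM in ESCs. They reached 1 FPKM only in NCs, so the rule itself helped to fix their call. Of 4 neural progenitor markers, 3 were higher (Sox1, Pax6 and Pax3), and Pax3 had 0.0717 FPKM in ESCs. All 4, Nes included, summed to 18.3 FPKM in ESCs and 107 in NCs. Of the 5 neuron markers that reached 1 FPKM none was higher and 3 were lower (Tubb3, Nefl and Elavl3). Elavl3 had 0.632 FPKM in NCs, and Map2 and Rbfox3 were within the limit. Dcx, under 1 FPKM in both conditions, had 0.0140 FPKM in ESCs against 0.334 in NCs. The whole neuron list, Dcx included, summed to 47.8 and 13.3 FPKM. The neuron markers that reached 1 FPKM thus did not bear out the name neuronal cells at 48 h.

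Of the 10 BMP receptors and antagonists, 8 reached 1 FPKM, and 3 of these 8 were called higher in NCs, namely Bmpr1a, Nog and Fst. None was called lower, beside 10.6% of all genes. That share of 37.5% stands beside the 12.5% of all genes. The log2 ratios of the 8 genes ran from 0.11 to 1.66, with a median of 0.78, and the median of all 13290 genes was -0.03. Bmpr1b and Grem1 stayed under 1 FPKM in both conditions. Over all 10 genes, 9 had the higher FPKM in NCs and Grem1 had the lower. Of all genes that reached 1 FPKM, 48.0% had the higher value in NCs as deposited and 66.9% after TPM scaling. A pseudocount cannot change the direction of a ratio, and TPM scaling and centring on the median gene raised every log2 ratio. The 9 genes could thus not change direction under these. Grem1 could have done so under the scalings only, and stayed lower in NCs. Centring subtracts the median log2 ratio of the 11715 genes with 1 FPKM in both conditions, which was -0.05.

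**Figure D1:**
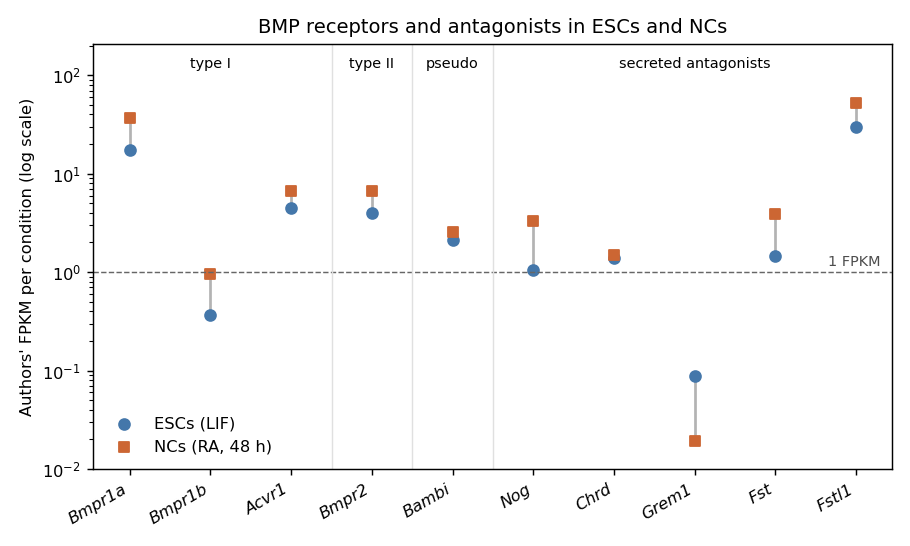
Authors' FPKM of each gene (log scale) in ESCs (circles) and NCs (squares), 1 value per condition with no error available, and the dashed line at 1 FPKM. Fstl1 and Bmpr1a had the highest levels in both conditions, Bmpr1b and Grem1 lay under the line, and Grem1 was the gene with the lower value in NCs.

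Bmpr1a, the main type I receptor for BMP2 and BMP4, was the most abundant receptor in both conditions. The gene lies on chromosome 14 from 34410734 to 34503341 (minus strand, GRCm38) and has 13 exons. Its FPKM was 17.4 in ESCs and 36.8 in NCs, a 2.12-fold difference with a log2 ratio of 1.09. This ratio was larger than that of 88.6% of the genes that reached 1 FPKM. Expressed as TPM, the level was 22.5 in ESCs and 58.6 in NCs. It stayed past the 2-fold limit with a pseudocount of 1 FPKM, at a log2 ratio of 1.04. An antisense gene, Gm17110, shares 3.77% of the 50-base words of Bmpr1a and has no row of its own, and whether its reads entered the value was not tested.

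Bmpr1b encodes a second type I receptor, best known for its part in skeletal patterning. It lies on chromosome 3 from 141837136 to 142169425, and had 0.369 FPKM in ESCs against 0.949 in NCs. The level of Bmpr1a was 47.0 times that of Bmpr1b in ESCs and 38.8 times in NCs, on the FPKM scale, which is per length. The 2.57-fold difference of Bmpr1b was not counted as a call, because neither value reached 1 FPKM. In TPM its NC level was 1.51, so a filter of 1 set on that scale would count it as higher.

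The promoters of these paralogous receptors are shown because this pair of type I receptors lay furthest apart in level. RefSeq windows of 300 bases, from 250 before to 50 after a transcription start, were available for 7 of the 10 genes, and none was used here for Bambi, Nog and Fst. The Bmpr1a window (chr14:34502497-34502796, minus strand, GRCm38.p6) had a G+C content of 79.3% and a ratio of observed to expected CpG of 1.02. All 32817 promoter windows had medians of 52.7% and 0.383. The Bmpr1b window printed here is the middle one of 3 (chr3:141931539-141931838, minus strand), with 53.0% G+C and a CpG ratio of 0.291. It was the only one of the 3 with an AGGTCA element. All 3 windows lie inside the gene, away from its 5' end at 142169425. A promoter at that end is thus not described here. Capitals mark a GGCGCC element in Bmpr1a, a GC-rich sequence of the kind that SMAD proteins bind, and an AGGTCA element in Bmpr1b, the core motif of RA receptor sites.
Bmpr1a: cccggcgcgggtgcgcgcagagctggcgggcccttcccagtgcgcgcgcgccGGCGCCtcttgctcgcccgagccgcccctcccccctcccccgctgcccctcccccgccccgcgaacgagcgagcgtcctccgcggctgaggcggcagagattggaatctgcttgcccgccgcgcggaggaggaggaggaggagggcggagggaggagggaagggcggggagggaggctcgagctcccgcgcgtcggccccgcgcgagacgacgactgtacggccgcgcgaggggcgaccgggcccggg
Bmpr1b: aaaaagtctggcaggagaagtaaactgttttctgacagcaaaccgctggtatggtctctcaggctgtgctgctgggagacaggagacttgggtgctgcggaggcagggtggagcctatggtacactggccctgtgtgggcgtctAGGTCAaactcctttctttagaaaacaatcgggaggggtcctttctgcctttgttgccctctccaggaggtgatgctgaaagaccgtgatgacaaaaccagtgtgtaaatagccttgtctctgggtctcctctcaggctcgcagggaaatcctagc

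Acvr1 encodes the type I receptor ALK2, which responds to BMP7 and related ligands. It lies on chromosome 2 from 58388644 to 58567157. Its FPKM was 4.47 in ESCs and 6.66 in NCs, which is 1.49-fold higher in NCs and within the 2-fold limit. The promoter window of Acvr1 had 83.7% G+C and a CpG ratio of 1.06, and held none of the elements searched. The FPKM of the 3 type I receptors summed to 22.2 in ESCs and 44.4 in NCs. Bmpr1a made up 78.2% of that sum in ESCs and 82.9% in NCs, and Acvr1 made up 20.1% and 15%. Bmpr1b contributed 1.66% and 2.14%.

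Bmpr2 (chromosome 1, 59763400 to 59879014) encodes the type II receptor dedicated to BMP ligands. It had 3.96 FPKM in ESCs against 6.71 in NCs, a 1.69-fold difference. The log2 ratio was 0.76 as deposited and 1.05 in TPM, so Bmpr2 was past the 2-fold limit on the TPM scale only. After centring on the median gene the log2 ratio was 0.81. Bmpr2 and Acvr1 had similar levels, with a ratio of Bmpr2 to Acvr1 FPKM of 0.886 in ESCs and 1.01 in NCs, and without replicate values their order cannot be judged. Bmpr1a exceeded Bmpr2 by 4.38 times in ESCs and by 5.49 times in NCs.

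Bambi encodes a membrane protein that resembles a type I receptor but lacks the intracellular kinase, and it dampens BMP and TGF-β signaling. The gene lies on chromosome 18 from 3507923 to 3516404. Its FPKM was 2.13 in ESCs and 2.54 in NCs, a log2 ratio of 0.25. In ESCs the level of Bmpr1a was 8.14 times that of Bambi, and in NCs it was 14.5 times. A processed pseudogene, Bambi-ps1, has its own row, with 1.04 FPKM in ESCs against 2.2 in NCs. It lies on chromosome 2 from 122466935 to 122467526. In GENCODE M21, 0 of the 5025 words of 50 bases in the Bambi transcript occur in a transcript of another gene.

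**Figure D2:**
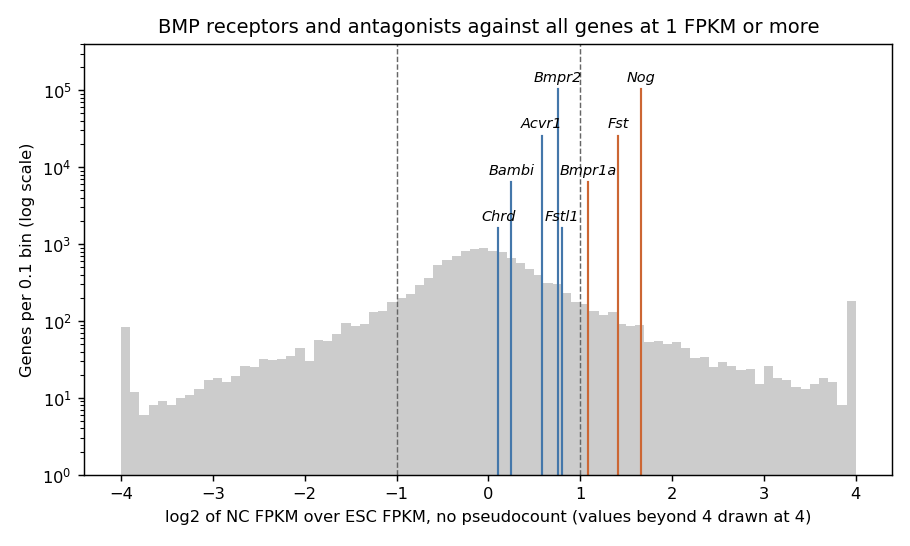
Histogram of the log2 ratio of NC to ESC FPKM in bins of 0.1 (counts on a log scale, ratios beyond 4 drawn at 4) over 13216 genes with at least 1 FPKM in 1 condition and no value of 0, with the 8 BMP receptors and antagonists at that level as vertical lines and the 2-fold limits dashed. All 8 lines lie above 0, as did 48.0% of all genes at that level (66.9% after TPM scaling), and those of Bmpr1a, Fst and Nog lie beyond the upper limit.

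Noggin, the product of Nog, binds BMP ligands tightly and blocks both receptor contact surfaces. Nog is a gene with 1 exon on chromosome 11 (89300638 to 89302332, minus strand). It had 1.04 FPKM in ESCs against 3.30 in NCs. The 3.17-fold difference, a log2 ratio of 1.66, was the largest of the 8 genes and exceeded the ratio of 93.5% of all genes at this level. With a pseudocount of 1 FPKM it was 1.08 and still past the limit.

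Fst encodes follistatin, which neutralizes activins and, with lower affinity, several BMPs. The gene is on chromosome 13 (114452290 to 114458951, minus strand). Its FPKM was 1.46 in ESCs and 3.86 in NCs, which is 2.65-fold higher in NCs. The log2 ratio of 1.41 became 0.98 with a pseudocount of 1 FPKM, just within the 2-fold limit. The antisense gene Gm47040, also without a row, shares 1.40% of the 50-base words of Fst. The levels of Fst and Nog were close in both conditions, with a ratio of Fst to Nog FPKM of 1.40 in ESCs and 1.17 in NCs.

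Chrd encodes chordin, a large antagonist that is cut and inactivated by tolloid proteinases. It lies on chromosome 16 (20733127 to 20742384) and had 1.39 FPKM in ESCs against 1.5 in NCs, a log2 ratio of 0.11. Thpo overlaps Chrd on the opposite strand, and 2.73% of the 50-base words of Chrd also occur in Thpo, which had 2.15 FPKM in ESCs against 1.41 in NCs. How the overlap was counted was not tested. The order of Nog and Chrd differed between the conditions, with a ratio of Nog to Chrd FPKM of 0.749 in ESCs and 2.2 in NCs.

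Grem1, which encodes gremlin 1, an antagonist of BMP2, BMP4 and BMP7, was at very low values, with 0.0889 FPKM in ESCs against 0.0193 in NCs. The gene is on chromosome 2 (113746164 to 113758646, minus strand). Depth per sample is unknown, so these values carry no interval. Among 217 genes with a single transcript of a length within 10% of that of Grem1, the lowest value above 0 was 0.00320 FPKM in ESCs against 0.00168 in NCs. Grem1 had a percentile of 30.7 among all gene names in ESCs and of 22.3 in NCs. Its log2 ratio of -2.20 as deposited was -0.10 with a pseudocount of 1 FPKM, and no call was made. Of the 50-base words of Grem1, 1.51% also occur in transcripts of 451 other genes, and whether their reads entered its values was not tested. The Grem1 promoter is shown because its window (chr2:113758599-113758898, minus strand, GRCm38.p6) was the one among the 7 genes with an AGGTCA element together with a GGCGCC element. Both are in capitals, AGGTCA as its reverse complement TGACCT.
Grem1: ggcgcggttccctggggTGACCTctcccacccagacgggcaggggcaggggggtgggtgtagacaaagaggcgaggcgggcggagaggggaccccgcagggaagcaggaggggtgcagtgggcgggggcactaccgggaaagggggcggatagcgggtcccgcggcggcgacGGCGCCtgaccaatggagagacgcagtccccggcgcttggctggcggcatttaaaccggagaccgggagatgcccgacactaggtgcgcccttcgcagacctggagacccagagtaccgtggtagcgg

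Both strands of the 9 windows of the 7 genes were searched for these elements. AGGTCA, which 16.3% of all promoter windows hold, was in those of Bmpr1b (1 of its 3) and Grem1. GGCGCC, which reads the same on both strands and occurs in 11.9% of all windows, was in those of Bmpr1a, Bmpr2, Chrd and Grem1. Their G+C content was 79.3%, 59.3%, 78.3% and 70.7%, beside a median of 52.7% over all windows. The shares over all windows were not matched for G+C, so no excess can be read from them. The SMAD palindrome GTCTAGAC occurs in 0.213% of all windows and in none of the 9. A match is a string of letters and not a measured binding site.

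Fstl1 encodes a secreted glycoprotein related to follistatin and SPARC that has been described as a BMP4 antagonist. It lies on chromosome 16 (37776873 to 37836514) and had the highest level of the 10 genes, with 29.9 FPKM in ESCs against 51.9 in NCs. The 1.74-fold difference was within the 2-fold limit, and in TPM, at 38.8 and 82.5, it was past it with a log2 ratio of 1.09. After centring on the median gene the log2 ratio was 0.84. Of the 50-base words in its transcripts, 5.35% also occur in other genes.

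**Figure D3:**
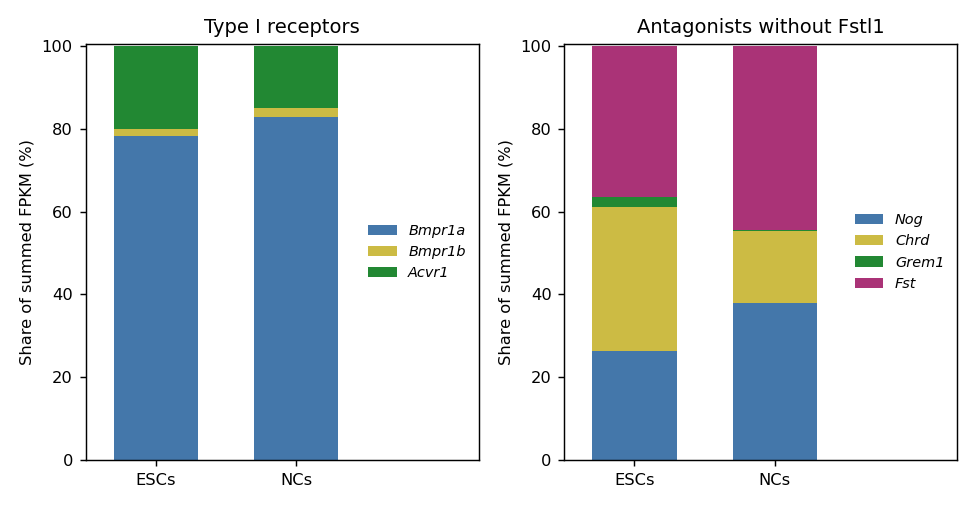
Share of summed FPKM (percent, from 0 to 100) held by each type I receptor and by each antagonist other than Fstl1 in ESCs and NCs. Bmpr1a held most of the type I sum in both conditions, whereas the share of Chrd was 35% in ESCs and 17.3% in NCs.

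The FPKM of the 5 secreted antagonists summed to 33.9 in ESCs and 60.6 in NCs, and Fstl1 made up 88.2% and 85.7% of these sums. Without Fstl1 the sum was 3.98 FPKM in ESCs against 8.69 in NCs, 2.18-fold higher. Within it, Nog made up 26.2% in ESCs and 38% in NCs, and Fst 36.6% and 44.5%. Grem1 contributed 2.23% in ESCs and 0.222% in NCs. In the order of levels, Fstl1 and Bmpr1a were first and second in both conditions and Bmpr1b and Grem1 last. Bambi and Chrd had higher FPKM than Nog in ESCs and lower FPKM than Nog in NCs. Whether neighbours in this order differ beyond replicate spread cannot be said from these values.

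With a limit of 1.5-fold, 5 of the 8 genes were higher in NCs, against 20.6% of all genes at this level. The additions were Bmpr2 and Fstl1. After TPM scaling the same 5 genes were past the 2-fold limit, against 17.7% of all genes. The calls of Bmpr2 and Fstl1 therefore depended on the limit and on the scale, whereas Bmpr1a and Nog were called under each pseudocount and scaling tried. TPM scaling and centring raise every log2 ratio, so of these only the pseudocounts could have removed a call of higher.

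Some of the other genes of the pathway were set beside these receptors and antagonists. The 8 lists hold 69 genes, of which 47 reached 1 FPKM, and 22 of these 47 (46.8%) were higher and 4 (8.51%) lower in NCs. Over all genes 12.5% were higher and 10.6% lower, so the share of lower genes was near that of all genes. The counts of each list below stand beside the same 2 shares. After TPM scaling 1 of the 47 was lower, beside 980 of 13290 genes. Of the 22 higher genes, 8 were under 1 FPKM in ESCs and passed the filter only through their NC value, so the filter itself helped to fix their call. The same was true of 784 of the 1657 higher genes in the whole table and of none of Bmpr1a, Nog and Fst. Among 14 other antagonists, most of them secreted, 7 reached 1 FPKM and 3 of them were higher. These were Chrdl1, a chordin-like gene, from 0.156 to 1.12 FPKM, Crim1, a transmembrane BMP-binding protein, from 2.13 to 5.88 FPKM, and Nbl1, of the DAN family, from 1.27 to 2.77 FPKM. None was lower. Twsg1, which acts with chordin, had 22.6 FPKM in ESCs against 31.9 in NCs, and of the proteinases that cut chordin Bmp1 was 2.41-fold higher in NCs, from 2.26 to 5.46 FPKM.

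Among 8 other receptors of the TGF-β family, 6 reached 1 FPKM, with 3 higher and 1 lower. Acvr2a, a type II receptor shared by activins and BMPs, had 3.62 FPKM in ESCs against 9.25 in NCs, and the other shared type II receptor, Acvr2b, had 16.5 and 18.8 FPKM. The type II receptor level of Acvr2b thus exceeded that of Bmpr2 in both conditions. Tgfbr1 was 2.38-fold and Tgfbr2 2.08-fold higher (Tgfbr2 from 0.725 to 1.51 FPKM), and Amhr2 was 2.06-fold lower in NCs. All 6 coreceptor genes reached 1 FPKM and 3 were higher, with Rgma at 1.27 FPKM in ESCs against 13.1 in NCs. Tgfbr3 was 3.37-fold higher, from 0.611 to 2.06 FPKM, and Neo1, a receptor for RGM proteins, 2.49-fold higher.

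**Figure D4:**
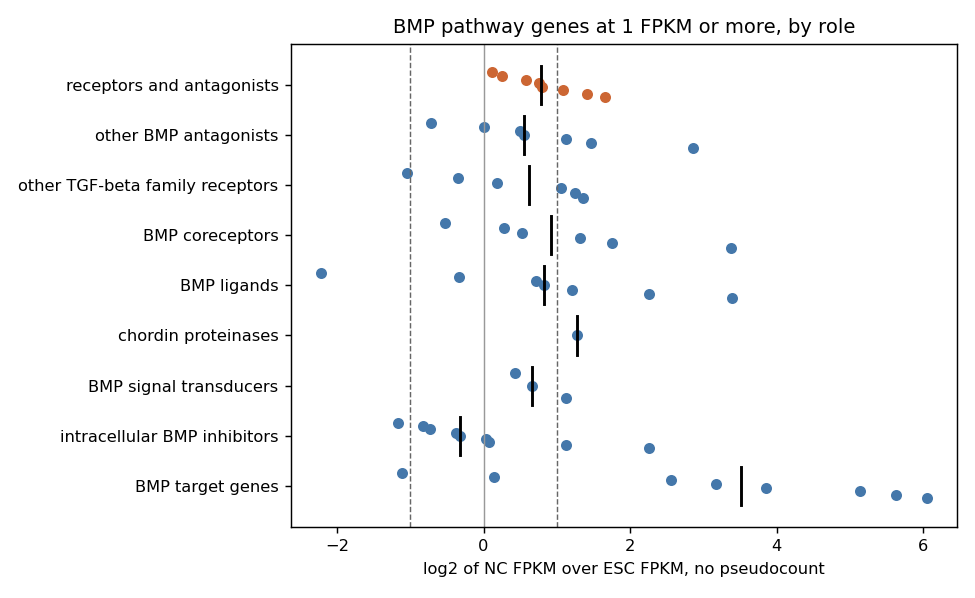
log2 ratio of NC to ESC FPKM for each gene at 1 FPKM or more, grouped by role, with black bars at the group medians and dashed lines at the 2-fold limits. The median was 0.78 for the receptors and antagonists, -0.32 for the intracellular inhibitors and 3.51 for the target genes.

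Of 16 BMP ligand genes, 7 reached 1 FPKM, with 3 higher and 1 lower. Bmp2 had 0.209 FPKM in ESCs against 2.2 in NCs, Bmp7 7.14 and 16.5 FPKM, and Gdf7 0.230 and 1.10 FPKM. Gdf3, which is expressed in pluripotent cells, was 4.63-fold lower in NCs. Bmp4 had 4.06 FPKM in ESCs against 7.16 in NCs, within the limit. Among the signal transducers, Smad1 was higher, and Smad4 and Smad5 were within the limit. Of 9 intracellular inhibitors, Smad6 was 4.79-fold and Ski 2.17-fold higher, and Skil was 2.26-fold lower in NCs. Of the 9 listed target genes, 8 reached 1 FPKM and 6 were higher, while Id4 was 2.16-fold lower. The largest ratios were those of Atoh8, from 0.0598 to 3.96 FPKM, Msx1, from 0.117 to 5.75 FPKM, Id3, from 9.56 to 337 FPKM, and Id2, from 11.5 to 167 FPKM. The lists were chosen with earlier results on these genes known, so their counts are a description.

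Markers of other cell types were read beside these values. Their counts stand beside 12.5% of all genes higher and 10.6% lower in NCs. Of 7 extraembryonic endoderm markers, 5 reached 1 FPKM and 4 were higher in NCs (Foxa2, Sox17, Gata6 and Dab2). Foxa2 (0.617 FPKM) and Sox17 (0.861 FPKM) were under 1 FPKM in ESCs and passed the filter only through their NC value. The summed FPKM of all 7 was 16.3 in ESCs and 38.4 in NCs, with Afp and Ttr under 1 FPKM in both. Of 6 fibroblast markers, 4 reached 1 FPKM, with Col1a1 and Col1a2 higher and Thy1 lower. The sum of all 6 was 21.2 FPKM in ESCs against 41.9 in NCs. Lum had a listed value of 0 in ESCs, against 0.0691 FPKM in NCs. Of 4 mesoderm markers, 1 reached 1 FPKM and none was called, with sums of 2.17 FPKM in ESCs and 1.26 in NCs. The part of such cells in the values of Bmpr1a, Nog and Fst was not tested.

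The genes nearest to each called gene in both conditions were found by Euclidean distance on log2(FPKM + 1). Over only 2 conditions this finds genes of like level and says no more. For Bmpr1a they were Gpr125 (17.3 FPKM in ESCs against 36.5 in NCs), Ttc3 and Vezf1, at distances of 0.0138 to 0.112. For Nog they were Crtc3, Faxc and Barx1, at 0.0235 to 0.0353. For Fst they were Sema3c, Kctd12 and Cacna1g, at 0.0154 to 0.0434.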

How the data were processed

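RNA-seq of 6 samples of E14Tg2a cells was used, 3 per condition, and samples were grouped by their titles. The authors aligned reads to mm10 with TopHat 2.0.8 and Bowtie 2.1.0, assembled transcripts with Cufflinks 2.0.2 and Cuffmerge, and ran Cuffdiff, whose version is not given in the sources used here. The authors deposited 1 FPKM value per gene and condition; how the replicates were combined is not given in the sources used here. The heading of the NC column reads FPK and was taken as FPKM. Further columns hold the authors' own comparison of the conditions (its status, log2 ratio, statistic and p-values before and after correction) and were not used. Depth per sample is unknown, so no interval or floor was computed.

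Ratios of NC to ESC FPKM were computed without a pseudocount. For a name on several rows, the row with the highest mean FPKM was taken. Percentiles were taken over all distinct names. Gene positions and transcripts came from GENCODE M21 on GRCm38, the assembly that mm10 denotes, and promoters from RefSeq (GRCm38.p6). Without replicate values no test was run. Planned comparisons of receptor proteins were not made. The 10 genes and all gene lists were chosen with earlier results of these data known. Named genes were these 10, at most 4 called genes per direction from each other list, by absolute log2 ratio, and the 3 nearest genes of each called gene. Other genes, such as Acvr2b, Bmp4, Smad4, Smad5, Twsg1, Thpo, Bambi-ps1 and those of the marker lists, were named after their values were seen. The fold rule was tested on simulated data whose planted changes lay past the limit, which says nothing about ratios near it. Alternatives were other fold limits, pseudocounts, filters, scalings and sums over rows. Python 3.11.15, numpy 2.4.6, pandas 2.3.3 and matplotlib 3.10.9 were used.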

Additional observations from a re-analysis of the deposited data

How the results depend on the processing

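No paired analysis was possible because the deposited table holds 1 pooled value per condition, and for the same reason no replicate could be left out. Summing rows of the same name could not change the 16 values recomputed that way, since each gene has 1 row. Of the other 64 values recomputed under an alternative, 53 kept their direction and their call or, for counts, stayed within 1.5 times. Bmpr1b and Grem1, under 1 FPKM, were uncalled in each of these and so count as kept. With a pseudocount of 1 FPKM their log2 ratios moved inside the 2-fold limit, to 0.51 and -0.10. The direction of a ratio could not change under a pseudocount. TPM scaling and centring raise every log2 ratio, so only Grem1 could have changed direction there, and no call of higher could be lost. The tally of 53 therefore says little about how far the results depend on the processing. Of the 10 genes, the number higher in NCs was 3 as reported, 5 with a limit of 1.5-fold or after TPM scaling, and 0 with a limit of 4-fold. It was 6 with TPM scaling and a filter of 1 TPM, which was chosen after seeing the data and adds Bmpr1b. Without a filter, 4 genes were higher (Bmpr1a, Bmpr1b, Nog and Fst) and 1, Grem1, was lower. For the 4-fold limit, the filter of 1 TPM and no filter, the share of all genes was not computed. Those counts thus have no background. After TPM scaling the log2 ratio was 1.05 for Bmpr2 and 1.09 for Fstl1, both past the limit. With a pseudocount of 1 FPKM that of Fst was 0.98, within it. In the other lists 22 genes were higher as reported, 16 with a pseudocount of 1 FPKM, 24 after TPM scaling and 25 with a limit of 1.5-fold. In the same order, 4, 2, 1 and 7 genes were lower. Of all genes, 17.7% were higher after TPM scaling and 20.6% with a limit of 1.5-fold, and 980 of 13290 were lower after TPM scaling. The shares of all genes with this pseudocount, and of lower genes at 1.5-fold, were not computed. Depth is unknown, so the values of Grem1 and Bmpr1b, both under 1 FPKM, have no interval.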
